A study of Mus musculus with 19 samples.

Results

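The whole span of CMC (cardiomyocyte) maturation was examined by setting the 5-hmC peaks of E14.5 embryos against those of 2-month-old adult mice, leaving out the neonatal point that lies between them. Every autosomal protein-coding gene of at least 5 kb was measured by the percent of its length that lay under peaks in each file. A gene was called higher at one point when both replicates of that point exceeded both replicates of the other. Of 15498 genes, 2569 were covered more at E14.5 (16.6% of the genes), 4274 more in adult (27.6%), and in 8655 the replicates of the points overlapped. Regions common to both replicates of one point and free of peaks in both files of the other were taken beside the genes, and there were 22922 such regions at E14.5 and 18104 in adult.

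The 4 files come from isolated C57BL/6J CMCs, 2 biological replicates at each point, from which an antibody to 5-hmC pulled down DNA for sequencing (hMeDIP). The series holds 19 samples, of which 8 had a peak list: E14.5, neonatal (1 to 2 days), adult and adult 1 week after transverse aortic constriction (TAC), surgery that raises the pressure against which the heart pumps. Per the study's methods, embryonic and neonatal cells came from digested ventricles and adult cells from the perfused left ventricle of male mice, so that age, isolation and part of the heart cannot be told apart. Purity was judged there by staining for sarcomeric actinin and was not complete, embryonic cells were pre-plated and adult cells left to settle to remove other cells, and whether embryos were pooled is not stated. Fewer cells of a type and less 5-hmC per cell cannot be told apart.

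5-hydroxymethylcytosine (5-hmC) is made from 5-methylcytosine by the TET enzymes, either as a step of demethylation or as a mark that stays. It is known to lie on the gene bodies (GBs) of transcribed genes and on enhancers, and to be scarce at active transcription start sites (TSSs). Between mid-gestation and adult life CMCs stop dividing, build a dense contractile and mitochondrial apparatus and turn from glucose to fatty acids as fuel.

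The E14.5 lists held 132610 and 139706 peaks and the adult lists 104215 and 121214, over 88.2 and 94.2 Mb against 75.9 and 96.8 Mb of the autosomes. The length under peaks overlapped between the points, the number of peaks did not, and the mean gene was covered for 6.06% and 5.60% at E14.5 and for 7.11% and 9.54% in adult. The X chromosome stood apart, with 2037 and 2414 peaks at E14.5 and 449 and 396 in adult, and was left out of the gene calls. The sex of the embryos is not in the labels. The study's methods name male mice in a phrase that lists embryonic, neonatal and adult cells, and whether it covers the embryos is not plain. The part of sex in this difference was not tested. Per the file headers, tags of the 5-hmC library were scaled to the control in adult replicate 2, and control tags to the 5-hmC library in the other 3 files.

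Sequences of 2 regions for each direction are given to show where the mark was placed. Each is the middle of the widest region of its kind in the gene, on the forward strand of the GRCm38 (mm10) reference of RefSeq, with CpG sites in capitals. The Ankrd23 stretch (chr1:36534788-36535087) and the Slc38a2 stretch (chr15:96695258-96695557) lie in introns and belong to regions found at E14.5 only. The Tmem259 stretch (chr10:79982722-79983021) and the Mul1 stretch (chr4:138436927-138437226) lie in introns and belong to regions found in adult only.
Ankrd23: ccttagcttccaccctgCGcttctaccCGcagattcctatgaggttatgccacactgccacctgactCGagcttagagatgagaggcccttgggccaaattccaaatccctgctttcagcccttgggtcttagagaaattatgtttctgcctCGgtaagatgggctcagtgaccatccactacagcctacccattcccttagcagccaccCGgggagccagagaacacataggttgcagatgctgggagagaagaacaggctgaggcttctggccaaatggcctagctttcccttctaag
Slc38a2: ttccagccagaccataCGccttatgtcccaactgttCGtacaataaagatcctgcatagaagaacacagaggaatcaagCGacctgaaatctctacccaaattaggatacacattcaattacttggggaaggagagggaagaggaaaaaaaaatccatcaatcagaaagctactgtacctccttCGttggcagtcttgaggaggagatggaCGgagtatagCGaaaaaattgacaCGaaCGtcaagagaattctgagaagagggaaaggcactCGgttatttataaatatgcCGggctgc
Tmem259: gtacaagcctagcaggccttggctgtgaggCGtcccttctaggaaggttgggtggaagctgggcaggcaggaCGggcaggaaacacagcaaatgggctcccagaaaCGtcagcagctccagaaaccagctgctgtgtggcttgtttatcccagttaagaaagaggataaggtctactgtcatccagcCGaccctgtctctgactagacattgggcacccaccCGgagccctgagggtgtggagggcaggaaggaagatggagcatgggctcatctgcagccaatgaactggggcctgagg
Mul1: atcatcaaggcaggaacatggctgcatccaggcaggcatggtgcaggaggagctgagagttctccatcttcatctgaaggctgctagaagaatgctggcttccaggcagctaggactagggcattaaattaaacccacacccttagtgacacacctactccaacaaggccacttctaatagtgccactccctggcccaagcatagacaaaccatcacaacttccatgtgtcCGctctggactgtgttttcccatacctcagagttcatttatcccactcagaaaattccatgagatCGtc
These 4 stretches held 5, 10, 5 and 2 CpG sites, and the regions around them 32, 40, 55 and 35. The Ankrd23 and Slc38a2 regions carried a peak in both neonatal files and in neither TAC file. The Tmem259 region carried one in both neonatal and both TAC files, and the Mul1 region in neonatal replicate 1 and both TAC files.

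Muscle genes stood among the 12 with the widest gap at E14.5, the gap being the distance from the lower E14.5 file to the higher adult file. Ankrd23, an ankyrin-repeat protein of the titin filament, was under peaks for 74.4% and 69.4% of its length at E14.5 and for 28.9% and 13.7% in adult. Myh6, the alpha myosin heavy chain of atrial and adult mouse ventricular muscle, was covered for 43.2% and 32.4% at E14.5 and for 2.03% and 5.65% in adult. Its neighbour Myh7, the beta heavy chain of the fetal ventricle, was covered for 37.9% and 24.3% at E14.5 and for 2.09% and 8.37% in adult. Both E14.5 files lay above both adult files in each of these genes, which were picked for wide gaps. Myh6 and Myh7 are a pair known as background for a switch of expression around birth.

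Other genes of the heart shared this direction. Bmp10, a growth factor of the trabecular myocardium, was covered for 21.9% and 18.2% at E14.5 and had no peak in either adult file. Bmp10 lies on chr6:87428994-87434512 of GRCm38. Tnnt2, cardiac troponin T, was covered for 32.1% and 29.1% against 6.29% and 12.6%. Gja1, the gap junction protein connexin 43, was covered for 41.8% and 18.6% against 0% and 5.08%. The gaps of Bmp10, Tnnt2 and Gja1 were 18.2, 16.6 and 13.5 percentage points, in genes picked for wide gaps. With equal numbers of peaks the replicates of Tnnt2 overlapped.

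Perm1, a regulator of oxidative metabolism in muscle, was covered for 56.8% and 35.6% at E14.5 and for 3.62% and 13.5% in adult, and Lbh, a transcriptional cofactor of limb bud and heart, for 32.6% and 25.7% against 5.40% and 3.24%. Slc38a2, an amino acid transporter, was at 75.0% and 54.4% against 27.5% and 22.5%, and Rabggtb, a subunit of the enzyme that prenylates Rab proteins, at 30.5% and 24.7% against 0% in both adult files. Cd37, a tetraspanin of leukocytes, was at 46.2% and 43.4% against 0% and 15.5%. The remaining genes among the 12 widest gaps were Mylk2, a myosin light chain kinase, 1110002E22Rik, Daxx, a histone chaperone, and Dlg4, a scaffold protein of synapses, whose E14.5 files lay between 23.4% and 44.2% and whose adult files lay between 4.08% and 18.1%.

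In adult, the widest gaps were larger, and metabolic genes stood among them. Glul, glutamine synthetase, had no peak in either E14.5 file and was covered for 64.7% and 55.2% in adult. Mul1, a ubiquitin ligase of the outer mitochondrial membrane, was at 0% in both embryonic files against 64.1% and 79.0%. Ndufv1, a core subunit of respiratory complex I, was at 0% in both E14.5 files against 40.2% and 43.8% in adult. Acadvl, which opens the oxidation of very long-chain fatty acids, was at 9.55% and 0% against 59.8% and 64.8%. Counted by peak centres its replicates overlapped and its mean difference turned, to -0.953 centres per 10 kb, adult minus E14.5.

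The widest gap of all was that of Tmem259, a protein of the endoplasmic reticulum, with 0% and 7.02% at E14.5 and 73.6% and 87.5% in adult. Dvl2, a transducer of Wnt signals, was at 15.5% and 5.26% against 63.1% and 76.4%, and Fbxo31, an F-box protein, at 14.52% and 10.3% against 61.3% and 60.7%. Plekhn1 was at 1.40% and 0.931% against 59.1% and 53.7%. Apba3, Phospho1 and Dolpp1 were also among the 12 widest gaps, with E14.5 files between 0% and 11.5% and adult files between 48.4% and 65.6%. A gap of at least 10 percentage points was reached by 730 genes higher in adult and by 53 higher at E14.5. Wide peaks were more common in adult, with 2.98% and 4.52% of peaks over 2 kb against 1.77% and 1.61% at E14.5. Peak width enters a measure in base pairs, and its part in these gaps was not tested. The adult files had no peak in 467 of the genes higher at E14.5, and the E14.5 files none in 548 of those higher in adult. Of all calls 62.5% were higher in adult. With the same number of peaks drawn from each list, 4869 genes were higher in adult and 1820 at E14.5 (72.8%). The draw was made once at random, to the length of the adult replicate 1 list (104215), and took more peaks from the E14.5 lists. A move towards adult is thus built into it, and it is no support for the direction of the calls.

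Some calls of named genes did not stand when the peaks were counted otherwise. With equal numbers of peaks the replicates overlapped for 32 of 167 named genes, and 2 took the opposite call. Among the 32 were Slc38a2, Perm1, Mylk2, Daxx, Myh7, Tnnt2, Jph2, Fabp3, Cox5a, Ror2, Peg10, Phospho1, Dolpp1, Sdhb and Vim. By peak centres the replicates overlapped for 40. Among these were Cd37, Slc38a2, Mylk2, 1110002E22Rik, Dvl2, Phospho1, Dolpp1, Sdhb, Slc2a4, Polrmt, Hcn2, Tdg, Tet3, Ror2 and Vav1. Neither list of names is complete.

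The rule sets no smallest gap. Mybpc1, a myosin-binding protein of slow muscle, was just inside it at E14.5, with 1.58% and 0.873% against 0.868% and 0.870%. Ptpn4, a phosphatase, was just outside, with 0.912% and 1.28% against 0.913% and 0.912%. With a gap of at least 1 percentage point, 1600 genes (10.3%) were higher at E14.5 and 3651 (23.6%) in adult.

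**Figure D1:**
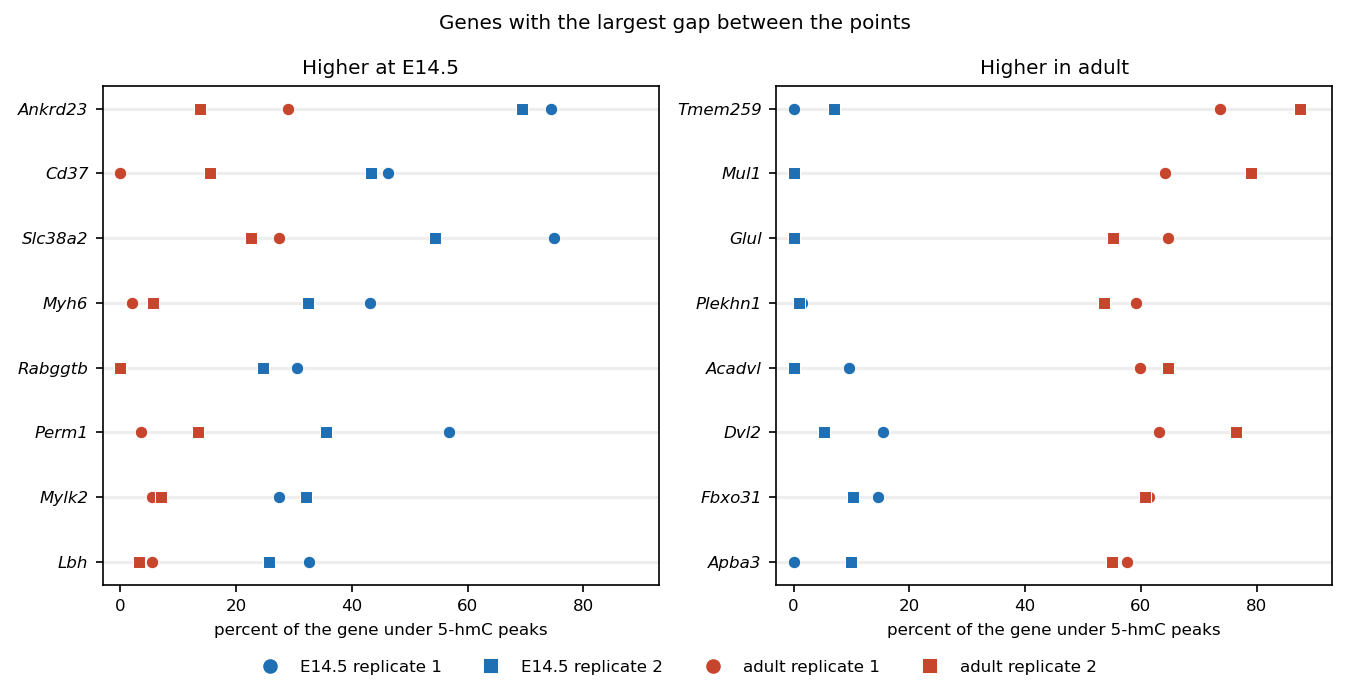
Percent of the gene under 5-hmC peaks (horizontal axis) in each of the 4 files, for the 8 genes of each direction with the largest gap between the lowest file of the higher point and the highest file of the lower point. Circles are replicate 1 and squares replicate 2, and in each row the blue (E14.5) and red (adult) points do not overlap, with the widest gap, 66.6 percentage points, at Tmem259.

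No gene passed a fit across all genes with these 4 files: limma on the arcsine of the square root of the covered fraction, over 14103 genes with a peak in at least 1 file, called 0 genes in each direction at an adjusted p of 0.05, with a smallest adjusted p of 0.0808. At an unadjusted p of 0.05 it found 1789 genes higher in adult (12.7%) and 848 higher at E14.5 (6.01%). The lowest adjusted p was shared by Bmp10, Rabggtb, Glul, Mul1, Plekhn1, Ndufv1 and Fbxo31, among others. An exact two-sided permutation test of a single gene with 2 files against 2 cannot go below 0.333. With the neonatal files in the fit for a shared estimate of the spread, 61 genes passed in adult (0.433%) and 14 at E14.5 (0.0993%). Their direction is that of their call because the same 4 files set both, so it is no separate support for the calls. Bmp10 and Rabggtb were among the 14, and Ndufv1, Fbxo31, Irx1, Clpp, Prkag1, Klf9 and Zbtb16 among the 61.

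Genes covered more at E14.5 and genes covered more in adult could lie side by side. Dvl2 and Acadvl, higher in adult, ended 1774 bp before Dlg4, higher at E14.5 (23.4% and 23.8% against 4.08% and 6.13%), within one stretch of 44.9 kb (chr11:70000592-70045532). In adult a single peak of 7.56 kb in replicate 1 and 9.36 kb in replicate 2 ran from Dvl2 into Acadvl. In both files its centre lay in Dvl2 and no other adult peak met Acadvl, so that the 2 genes' adult calls share this peak. At E14.5 the widest peak of the stretch, of 4.07 kb and 4.19 kb, lay in Dlg4 and met no adult peak over the 2881 bp common to both replicates. Perm1 and Plekhn1, 148 bp apart on chr4:156215927-156228542, also had opposite calls.

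At Myh6 (chr14:54941921-54966607) peaks were spread along the gene at E14.5, and its widest region found at E14.5 only, 2378 bp with 68 CpG sites (chr14:54948334-54950711), took in the hairpin of the miRNA Mir208a. Both neonatal files and TAC replicate 1 had a peak there. Over the genes of at least 5 kb, 5954 neighbours lay no more than 10 kb apart, in 1196 of these pairs both genes were called, and 874 pairs had calls in the same direction against 322 in opposite directions. These genes and pairs were chosen after their values were seen, and a peak can lie on both genes of a pair, so that the counts are a description.

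**Figure D2:**
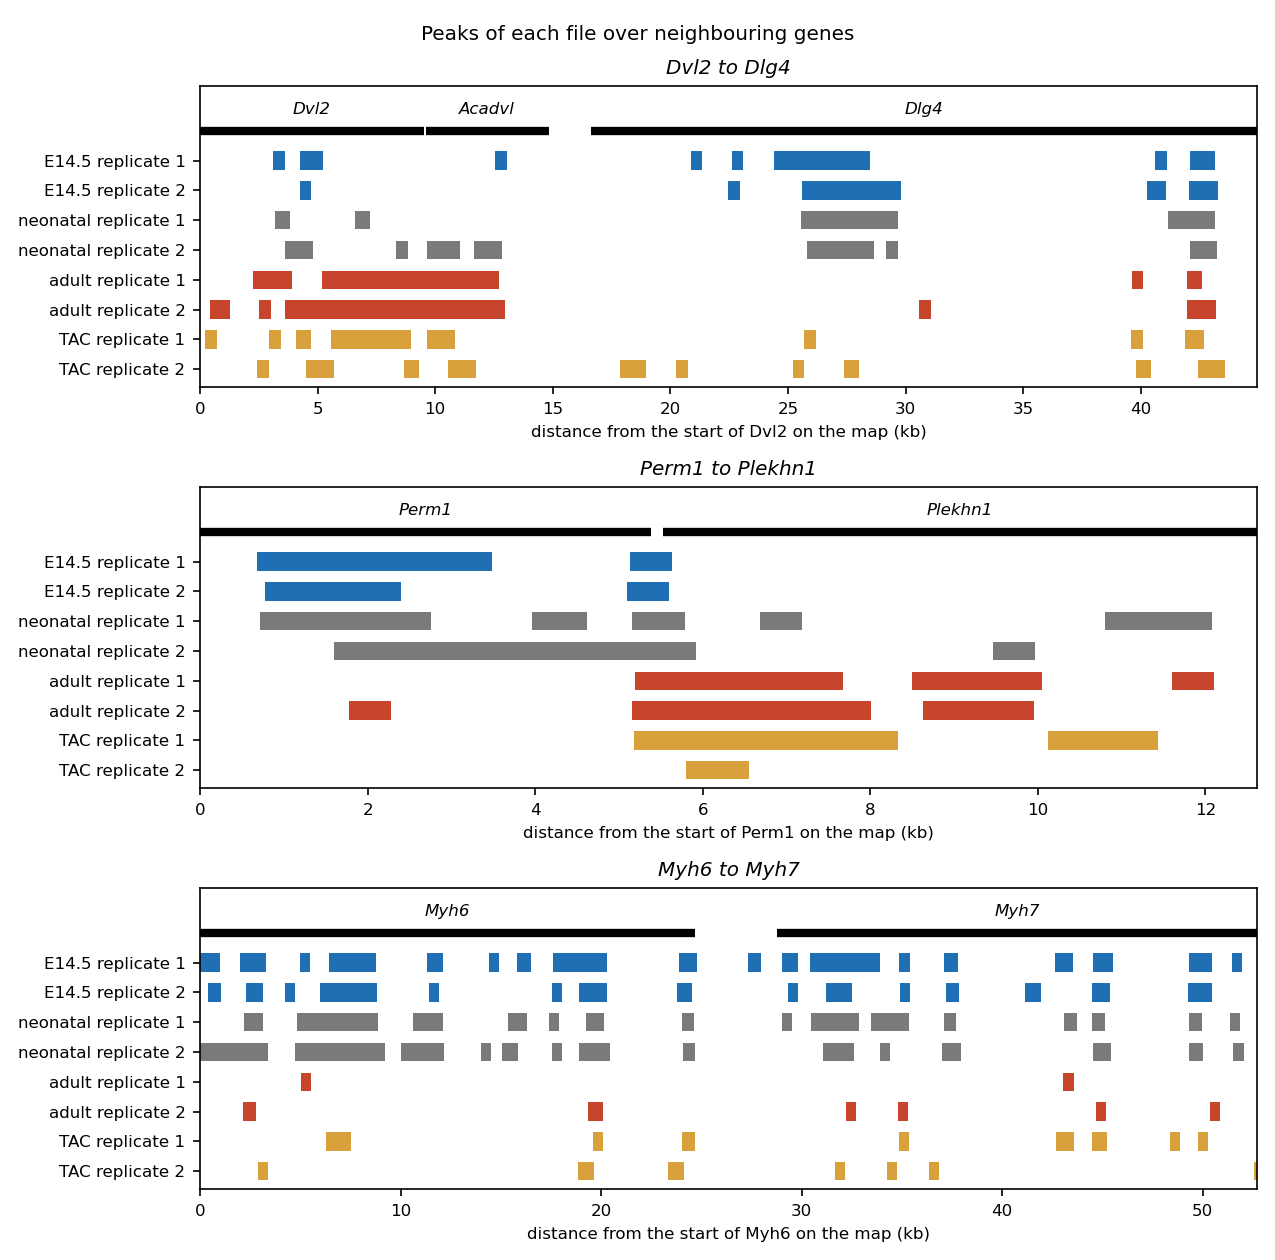
Peaks of each of the 8 files (rows, coloured by point) along 3 stretches of neighbouring genes (black bars), with distance in kb on the horizontal axis. Adult peaks fill Dvl2 and Acadvl and E14.5 peaks the middle of Dlg4, adult peaks sit on Plekhn1 and E14.5 peaks on Perm1, and Myh6 and Myh7 carry many peaks at E14.5 and in neonates and few in adult.

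The genes were then read by function, in lists of members of known pathways and cell types. Fuel and mitochondrial genes were covered more in adult. Of 41 genes of fatty acid oxidation, 29 were higher in adult and 2 at E14.5, of 58 genes of the TCA cycle and respiratory chain 39 and 4, and of 39 genes of mitochondrial import, quality control and dynamics 28 and 0. These shares of 70.7%, 67.2% and 71.8% higher in adult stood against 27.6% of all genes, and the median difference of each list, adult minus E14.5, was 12.3, 9.69 and 7.02 percentage points against 0.267 over all genes.

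Acadm, the medium-chain acyl-CoA dehydrogenase, was at 10.2% and 12.5% at E14.5 and at 44.1% and 40.7% in adult. Acacb, which makes the malonyl-CoA that holds back fatty acid import, was at 9.06% and 9.51% against 32.2% and 49.6%. Sdhb, of succinate dehydrogenase, was at 10.9% and 0% against 39.5% and 48.8%. These 3 were picked for wide gaps, so that the points lie apart in them by choice. The replicates of Sdhb overlapped with equal numbers of peaks and by peak centres.

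Among regulators of metabolism 23 of 42 were higher in adult (54.8%) and 2 at E14.5 (4.76%), against 27.6% and 16.6% of all genes. Ppara, the nuclear receptor that drives genes of fatty acid oxidation, was at 7.61% and 3.92% against 28.6% and 23.8%. Prkag1, a subunit of the energy sensor AMPK, was at 2.68% and 3.37% against 26.2% and 27.1%, and Polrmt, the mitochondrial RNA polymerase, at 12.1% and 4.79% against 43.3% and 72.8%. Of glucose and glycogen genes 17 of 34 were higher in adult (50%) and 3 at E14.5 (8.82%). By peak centres the adult counts of these 2 lists were 12 (28.6%) and 10 (29.4%), against 20.1% of all genes. Slc2a4, the insulin-dependent glucose transporter GLUT4, was at 10.8% and 16.9% against 48.9% and 54.5%, while Slc2a1, the GLUT1 transporter of fetal heart, was at 24.9% and 22.6% against 21.7% and 15.4%, a gap of 0.952 points in the opposite direction. The call of Slc2a1 was lost with equal numbers of peaks and with scaled coverage.

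A few genes of the fuel lists went the other way. Fabp3, the fatty acid carrier of heart muscle, was at 34.1% and 7.45% at E14.5 and had no adult peak. Atp5b and Cox5a, subunits of ATP synthase and of cytochrome c oxidase, were at 8.85% and 7.07% and at 6.44% and 10.97%, and also had no adult peak. Atp5c1 was at 14.6% and 12.6% against 8.19% and 5.23%, a call lost with equal numbers of peaks and by peak centres.

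The contractile and electrical apparatus held calls in both directions. Of 45 genes of sarcomere and Z-disc 17 were higher in adult (37.8% against 27.6% of all genes) and 7 at E14.5. The E14.5 share of 15.6% was near the 16.6% of all genes, and Ankrd23, Myh6 and Tnnt2 had the widest gaps on that side. On the adult side, Ttn, titin, the elastic filament of the sarcomere, was at 14.2% and 5.75% against 27.1% and 28.1%. Of 37 ion channels and connexins 19 were higher in adult (51.4% against 27.6% of all genes) and 6 at E14.5, and by peak centres 9 were (24.3% against 20.1%). Hcn2, a pacemaker channel, was at 14.0% and 2.57% against 31.7% and 39.9%.

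Calcium genes gave 17 of 36 higher in adult (47.2%) and 7 at E14.5 (19.4%), against 27.6% and 16.6% of all genes. Ryr2, the calcium release channel of the heart, was at 6.06% and 6.05% against 9.11% and 12.1%, and Jph2, which ties the sarcoplasmic reticulum to the T tubule, at 35.7% and 30.6% against 18.2% and 17.1%, higher at E14.5. Of 47 genes of intercalated disc and costamere 27 were higher in adult (57.4%) and 3 at E14.5 (6.38%). Jup, plakoglobin, was at 28.5% and 10.5% against 41.8% and 55.7%. Of 73 genes of hypertrophic and adrenergic signalling 42 were higher in adult and 8 at E14.5, with Gna11, a Gq-class protein, at 3.05% in both E14.5 files against 24.1% and 37.1%.

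Chromatin and transcription genes leaned to adult as well. Of 82 chromatin modifiers, 58 were higher in adult (70.7%) and 2 at E14.5. Kmt2d, a histone H3K4 methyltransferase, was at 13.4% and 9.45% against 28.5% and 60.7%. Of 26 genes of DNA methylation and its removal 10 were higher in adult (38.5% against 27.6% of all genes) and 0 at E14.5. With peak centres counted in place of base pairs 4 were higher in adult (15.4%, below the 20.1% of all genes so counted). Dnmt3a, a de novo methyltransferase, was at 22.7% and 13.8% against 31.7% and 36.8%. Tdg, which excises forms of methylcytosine oxidised beyond 5-hmC, was at 5.49% and 5.39% against 18.7% and 14.6%.

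The TET enzymes that make 5-hmC did not all share this. Tet1 was at 4.72% and 5.30% at E14.5 and at 8.78% and 10.9% in adult, and Tet3 at 26.1% and 15.7% against 29.3% and 32.7%, so that the replicates did not overlap. Tet2 was at 7.26% and 5.79% against 4.93% and 6.92%, with overlapping replicates. Of 47 cardiac transcription factors 20 were higher in adult (42.6%) and 4 at E14.5 (8.51%), against 27.6% and 16.6% of all genes. Mef2c was higher in adult, at 6.27% and 4.33% against 8.83% and 8.48%, Gata6 was higher at E14.5, at 25.3% and 16.2% against 3.02% and 10.3%, and Gata4 (13.04% and 6.51% against 10.1% and 15.2%) and Mef2a (6.72% and 5.20% against 7.56% and 6.65%) overlapped.

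Signalling pathways of development showed calls in both directions. Wnt genes gave 23 of 68 higher in adult and 19 at E14.5, TGF-beta and BMP genes 21 and 13 of 59, and Notch, Hedgehog and FGF genes 18 and 17 of 51. The adult shares were 33.8%, 35.6% and 35.3% against 27.6% of all genes. The E14.5 shares were 27.9%, 22.0% and 33.3% against 16.6%. Lef1, a nuclear effector of Wnt, was at 10.9% and 9.70% at E14.5 against 2.75% and 3.19% in adult, and Ror2, a Wnt receptor, at 28.7% and 20.7% against 10.7% and 15.2%. Gli2, a nuclear effector of Hedgehog, was at 10.1% and 10.03% against 2.91% and 4.93%. Jag2, a Notch ligand, went the other way, at 32.2% and 29.5% against 48.0% and 75.5%, but its mean difference turned to -0.239 per 10 kb by peak centres. With peak centres counted in place of base pairs, E14.5 had the larger count of TGF-beta and BMP genes (13 against 7) and of Notch, Hedgehog and FGF genes (15 against 10).

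Cell cycle genes carried little 5-hmC at either point, with a median coverage of 1.06% and 2.22% at E14.5 and of 1.33% and 2.95% in adult over 77 genes. Of these, 14 were higher in adult (18.2%) and 7 at E14.5 (9.09%), both below the 27.6% and 16.6% of all genes. By peak centres 9 were higher in adult (11.7% against 20.1% of all genes). Bub1b, a spindle checkpoint kinase, was at 7.07% and 6.18% against 2.31% and 2.95%, and Aurkb, the Aurora B kinase, had no peak at E14.5 and was at 16.6% and 8.31% in adult.

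**Figure D3:**
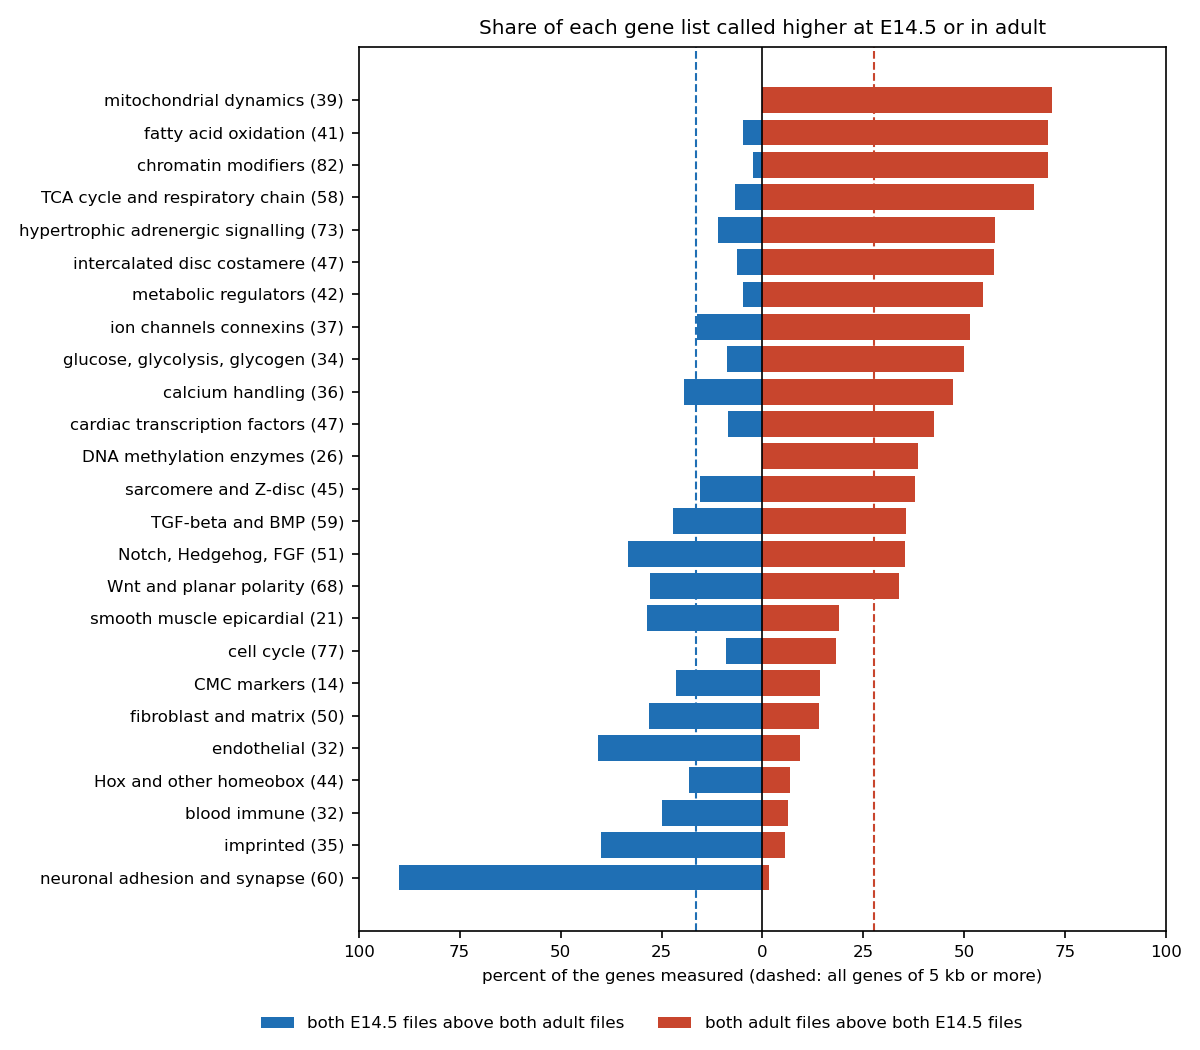
Percent of the measured genes of 25 lists (number of genes in parentheses) that were higher at E14.5 (blue, to the left) or in adult (red, to the right), with all genes of at least 5 kb as dashed lines at 16.6% and 27.6%. Mitochondrial dynamics, fatty acid oxidation and chromatin modifiers reach furthest to the right (71.8%, 70.7% and 70.7%) and genes of neuronal adhesion and synapse furthest to the left (90.0%).

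Markers of other cell types gave more calls at E14.5 than in adult. Of 32 endothelial genes 13 were higher at E14.5 (40.6%) and 3 in adult, of 50 fibroblast and matrix genes 14 (28.0%) and 7, of 32 blood and immune genes 8 (25%) and 2, and of 21 smooth muscle and epicardial genes 6 (28.6%) and 4, where all genes gave 16.6% and 27.6%. The median lengths of these lists were 44.3, 62.4, 41.6 and 28.5 kb, and among all genes of 50 to 200 kb 24.9% were higher at E14.5, a share close to that of the fibroblast list. Their coverage in percent, summed over the genes of a list, nevertheless overlapped between the points for the first (289 and 278 at E14.5 against 202 and 289 in adult), the second (434 and 386 against 338 and 473), the third (207 and 171 against 107 and 176) and the fourth (209 and 199 against 164 and 208). That of 14 CMC markers was 295 and 248 at E14.5 and 170 and 239 in adult, and did not overlap; 3 of them were higher at E14.5 and 2 in adult, an order that was lost when the same number of peaks was drawn from each list (1 and 3). What cells other than CMCs added to any gene was not tested.

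Thy1, a surface protein of fibroblasts and neurons, was at 15.6% and 12.1% at E14.5 and had no adult peak, and Col1a1, collagen I, was at 13.03% and 12.7% against 2.98% and 5.96%. Ets1, a transcription factor of endothelium, was at 10.2% and 11.1% against 4.39% and 3.40%, and Vav1, a signalling protein of blood cells, at 13.6% and 14.1% against 2.47% and 6.92%. The gaps of these 4 were 12.1, 6.78, 5.83 and 6.71 points. Other members of the fibroblast, endothelial and blood lists were higher in adult. Col4a2 was at 26.2% and 14.9% against 36.96% and 36.83%, and Plvap at 3.57% and 2.996% against 9.95% and 15.8%. Syk was at 6.81% and 4.91% against 9.80% and 13.9%. The gaps of Col4a2, Plvap and Syk were 10.7, 6.37 and 2.99 points. Among defining markers, Col1a2, Col3a1, Lox and Lum of the fibroblast list, Epb42 and Fcgr1 of the blood list and Pln of the CMC list had no peak in any of the 4 files. Vim, an intermediate filament of non-muscle cells, had none at E14.5 and was at 5.88% and 7.35% in adult. No region found in adult only had its centre in Vim.

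Genes of neuronal adhesion and synapse gave 54 of 60 higher at E14.5 and 1 in adult, the highest share of members called in 1 direction among the 25 lists. Their levels were low, with a median of 1.25% and 1.75% at E14.5 and of 0.440% and 0.447% in adult. Robo1, an axon guidance receptor, was at 5.58% and 6.69% against 1.54% and 1.70%, Gria1, a glutamate receptor, at 6.18% and 5.25% against 1.70% and 1.86%, and Erc2, a presynaptic scaffold, at 2.998% and 3.17% against 1.10% and 0.714%. Auts2 was the exception, at 7.40% and 7.44% against 10.03% and 12.1%. With equally long peak lists the count was 48 and 1.

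These are long genes, with a median of 767 kb against 25.3 kb over all genes, and length went with direction. Of 6405 genes of 5 to 20 kb, 8.67% were higher at E14.5 and 23.6% in adult. Of 4633 genes of 20 to 50 kb these shares were 13.7% and 29.6%, and of 3562 genes of 50 to 200 kb 24.9% and 33.7%. Of all 898 genes of at least 200 kb they were 54.9% and 21.5%. Of 701 genes of 200 to 500 kb these shares were 48.6% and 23.8%, and of 197 genes of at least 500 kb 77.2% and 13.2%. The list of 60 is to be read against the last pair. With equally long peak lists, 134 of the 197 longest genes were higher at E14.5 and 34 in adult. The median difference, adult minus E14.5, was 0.561 percentage points in the shortest class and -0.863 in the longest.

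**Figure D4:**
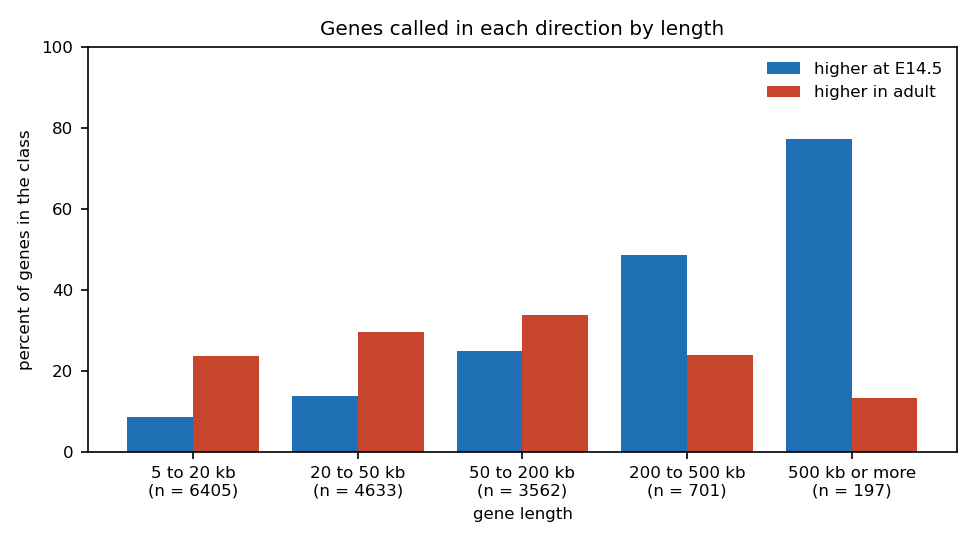
Percent of genes (vertical axis) called higher at E14.5 (blue) or in adult (red) in 5 classes of gene length, with the number of genes under each. The share higher at E14.5 runs from 8.67% in the shortest class to 77.2% in the longest, while the adult share is highest at 50 to 200 kb (33.7%).

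Imprinted genes, expressed from 1 parental copy, gave 14 of 35 higher at E14.5 (40%) and 2 in adult (5.71%), against 16.6% and 27.6% of all genes. Peg10 was at 3.79% and 9.20% against no adult peak, and Usp29 at 7.11% and 11.1% against 1.28% and 2.05%. With equal numbers of peaks the counts were 5 and 6, so that this order was lost in a draw that takes more peaks from E14.5. Of 44 Hox and other homeobox genes 8 were higher at E14.5 (18.2%, near the 16.6% of all genes) and 3 in adult, and 17 had no peak in any of the 4 files. With equal numbers of peaks 5 of them were higher at E14.5. Hoxb3 was at 6.06% and 2.02% and had no adult peak.

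Neonatal and TAC files, which took no part in the calls, were set against each other over the same genes. Genes higher at E14.5 were covered on average for 5.63% and 7.13% in neonates and for 3.24% and 3.14% after TAC. Genes higher in adult were covered for 10.7% and 12.4% in neonates and for 12.7% and 6.64% after TAC. Per the file headers, tags of the 5-hmC library were scaled to the control in neonatal replicate 2 and both TAC files, and the reverse in neonatal replicate 1, and the part of this in the comparison was not tested. TAC replicate 2 stands apart, with a mean gene coverage of 4.41% against 6.99% in replicate 1 and with 0.332% of its peaks over 2 kb against 2.65%.

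Both TAC files exceeded both neonatal files in 426 of the 4274 genes higher in adult (9.97%) and in 35 of the 2569 higher at E14.5 (1.36%), against 5.85% of all genes. Both neonatal files exceeded both TAC files in 1022 (23.9%) and 1307 (50.9%), against 28.1%. With TAC replicate 1 alone, 1727 (40.4%) and 130 (5.06%) were above both neonatal files, against 22% of all genes, and 1196 (28.0%) and 1822 (70.9%) below, against 36.8%. In either reading the genes higher at E14.5 were more often on the neonatal side than all genes, and those higher in adult more often on the TAC side.

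The regions found at one point only differed in place. At E14.5, 57562 regions were common to both replicates and 22922 of them (39.8%) met no adult peak. In adult, 46651 were common and 18104 (38.8%) met no E14.5 peak, and 13259 regions lay under peaks in all 4 files. Of the E14.5-only regions 45.4% (95% Wilson interval 44.8 to 46.1) had their centre on exons and introns, against 72.2% (71.6 to 72.9) of the adult-only regions, 66.8% of those in all 4 files and 37.6% of the genome. Intergenic sequence held 51.0% of the E14.5-only regions and 20.7% of the adult-only ones, and exons alone 2.44% and 7.76%. The intervals cover counting error only, as each set is 1 set of regions without replicates, and in the alternatives tried the share on exons and introns was 41.0% to 49.1% at E14.5 and 65.0% to 73.9% in adult.

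E14.5-only regions also lay further from the TSSs of protein-coding genes. Their median distance to the nearest such TSS was 48.3 kb against 21.5 kb, and 31.8% lay over 100 kb away against 12.9%. Within 1 kb of one lay 2.41% and 3.13%. Over 10 equal parts of the gene, the share of adult-only regions ran from 8.53% in part 8 to 11.8% in part 2, with 10.8% in the last, and that of E14.5-only regions from 9.20% in the last to 10.6% in part 3. By chromosome, adult-only regions were densest on chromosomes 11 and 19 (11.1 and 10.2 per Mb), where E14.5-only regions reached 10.5 and 9.88 per Mb, and on X there were 0.216 and 3.20 per Mb.

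In sequence, E14.5-only regions held 1.31 CpG sites per 100 bp and adult-only regions 1.82, against 0.826 over the genome. Soft-masked repeats made up 32.0% and 16.2% of the windows reaching 250 bp to each side of their centres. The letters AGGTCA, a part of the site of nuclear receptors, were found on either strand of these windows in 25.6% of E14.5-only, 33.5% of adult-only and 28.5% of the regions in all 4 files. The letters AGATAA, a form of the GATA site, were found in 25.6%, 20.1% and 19.3%, and the MEF2 site in 0.942%, 0.486% and 0.618%. Base composition differs between the sets (47.3%, 49.0% and 50.01% GC), and these matches are descriptions of letters.

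The neonatal files carried a peak in 49.2% and 67.8% of the E14.5-only regions and in 31.8% and 30.0% of the adult-only ones. TAC replicate 1 carried one in 23.2% and 42.0%, and TAC replicate 2, which stands apart, in 10.7% and 19.9%. Regions under peaks in all 4 files were found again in 75.2% and 88.0% in neonates and in 62.1% and 31.5% after TAC.

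**Figure D5:**
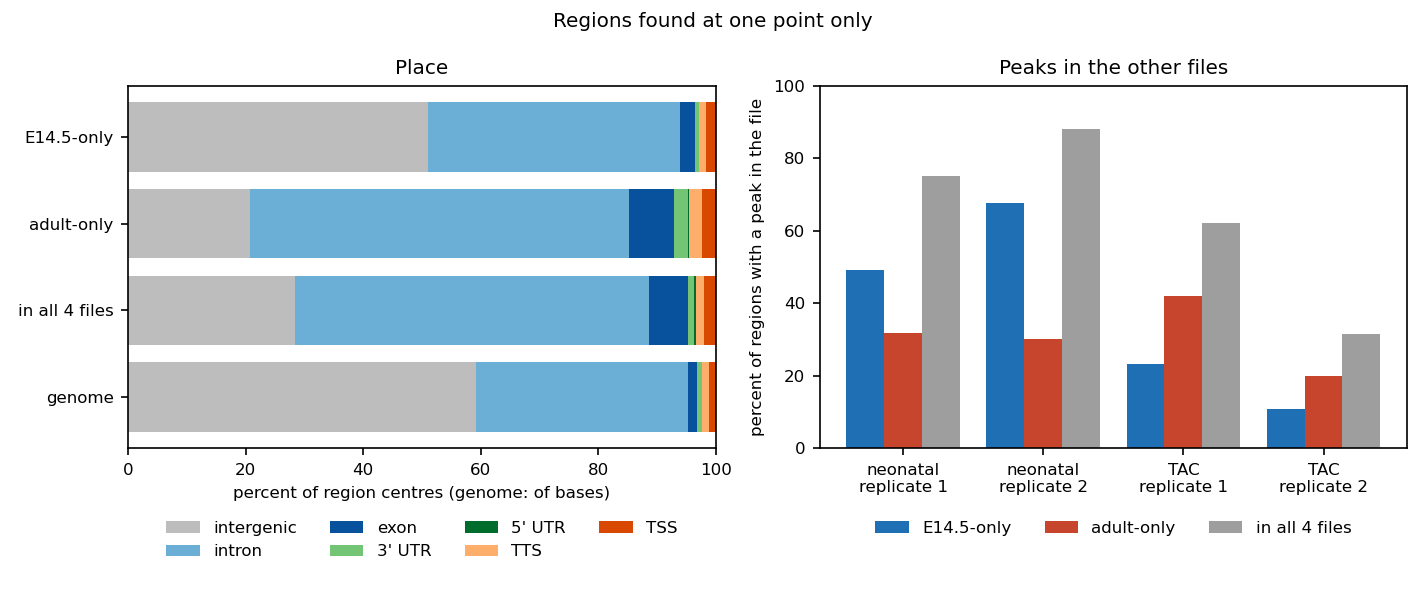
Left, percent of region centres in each class of annotation for E14.5-only regions, adult-only regions, regions in all 4 files and, by base pairs, the genome. TSS and TTS are the neighbourhoods of transcription start and termination sites of curated transcripts, coding or not. Right, percent of each set with a peak in the neonatal and TAC files: compared with adult-only regions, E14.5-only regions recur more in both neonatal files (49.2% and 67.8% against 31.8% and 30.0%) and less in both TAC files (23.2% and 10.7% against 42.0% and 19.9%).

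Single long genes gathered many such regions, and the counts are not scaled to gene length. The genes named here span 279 kb (Ttn) to 1057 kb (Rbms3), against a median of 25.3 kb over all genes. Wwox, a long oxidoreductase gene at a fragile site, held 34 regions found at E14.5 only and 4 found in adult only, Rbms3, an RNA-binding protein, 24 and 6, and Sdk1, an adhesion protein of synapses, 22 and 0. In adult, Cdh13, an adiponectin-binding cadherin, held 40 adult-only regions and 11 of E14.5, Ptprm, a receptor phosphatase, 35 and 6, and Ptprg 32 and 4. Cacna1c, the L-type calcium channel of the heart, stood in both groups, with 48 adult-only and 20 E14.5-only regions. Ttn held 24 adult-only and 3 E14.5-only regions.

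The widest regions were chosen by width, after their values were seen. At E14.5 they included 2881 bp in an intron of Dlg4 (chr11:70026207-70029087), 2955 bp in Rps6ka2, a ribosomal S6 kinase, and the Myh6 region over Mir208a. In adult they included 4087 bp in an intron of Arhgap10, a GTPase-activating protein, 3883 bp in Klf9 (chr19:23157643-23161525), 3663 bp and 3429 bp in Zbtb16 (chr9:48807780-48811442 and chr9:48692777-48696205), and 3609 bp in Foxo3 (chr10:42255932-42259540). Klf9, Zbtb16 and Foxo3 encode transcription factors.

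Regions over miRNA hairpins were listed after the values had been seen. Of 1228 curated hairpins, 36 were touched by a region common to both E14.5 files and 72 by one common to both adult files. E14.5-only regions touched 4 (0.326%) and adult-only regions 23 (1.87%). The mature forms of hairpins that lay wholly within such a region are given for families known in heart, 5′ to 3′ from RefSeq (GRCm38.p6), with the seed (bases 2 to 8) in capitals.
mmu-miR-208a-3p: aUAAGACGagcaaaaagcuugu
mmu-let-7b-5p: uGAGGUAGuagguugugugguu
mmu-let-7c-5p: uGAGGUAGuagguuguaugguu
mmu-let-7e-5p: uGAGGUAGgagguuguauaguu
mmu-miR-99a-5p: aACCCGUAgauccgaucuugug
mmu-miR-99b-5p: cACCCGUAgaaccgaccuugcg
mmu-miR-27b-3p: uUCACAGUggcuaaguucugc
Mir208a, in an intron of Myh6, was under the E14.5-only region of 2378 bp, and the other 6 were under adult-only regions. Mirlet7c-2 and Mirlet7b shared 1 region of 2921 bp (chr15:85706352-85709272) and Mir99b and Mirlet7e 1 region of 520 bp (chr17:17830041-17830560). The 3 let-7 forms, which are known to accumulate as cells differentiate, share the seed GAGGUAG, and the miR-99 pair shares ACCCGUA. The adult-only regions of Mirlet7b and Mir99b were also under a peak in TAC replicate 1 and neonatal replicate 1.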

How the data were processed

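5-hmC was measured by hMeDIP in CMCs with 2 replicates a point. Per the submitters' processing notes and the study's methods, reads were aligned to mm10 with BWA 0.7.4-r385, reads were filtered with the duplicate-marking module of Picard and for a mapping quality of at least 10, and peaks were called per replicate with HOMER in its histone setting against input DNA. The deposited lists give each peak's position with a score that the authors set to 1 in every row, so peak height and read depth are unknown here, no counting interval can be given for a gene, and only positions were used.

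Genes were the union of curated RefSeq transcripts (GRCm38) of autosomal protein-coding genes of at least 5 kb. The percent of each gene under peaks was computed per file (Python 3.11.15, pandas 2.3.3, pysam 0.24.0); 5 of 5 measures equalled bedtools 2.31.1 in a simulated set. A gene was called when the replicates of the points did not overlap. limma 3.58.1 (R 4.3.3) was fitted on the arcsine of the square root of the covered fraction, and its p-values measure only the spread between these samples. Alternatives were log2(percent + 0.5), 104215 peaks drawn once at random from each list, scaling to the file's coverage and peak centres. Others were different gene or region limits, a replicate block and leaving out each replicate. Equal peaks applied to gene lists, the length class of at least 500 kb and TAC replicate 1 alone were chosen after seeing the data.

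Named genes were the 12 widest gaps in each direction, up to 3 widest gaps per list and direction, genes the study names and the 8 genes with most regions of each kind. Members and lists were chosen with earlier results of these data known. Neonatal and TAC files entered only where stated. A few genes that the rule names are not reported here.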

Additional observations from a re-analysis of the deposited data

How the results depend on the processing

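Requiring a gap of at least 1 percentage point left 1600 genes higher at E14.5. Leaving out 1 replicate at a time gave 3262 to 4367 genes higher at E14.5 and 5269 to 6924 in adult, as fewer files had to be passed. limma called 0 genes in each direction in its main form, on the log2 scale, with scaled coverage, with a mean coverage of at least 1% (12876 genes) and with a replicate block. The block left 1333 genes higher in adult and 654 at E14.5 at an unadjusted p of 0.05; the replicate numbers share only a number, with a correlation of 0.0257 between the paired differences over 14103 genes. With the neonatal files it called 14 at E14.5 and 61 in adult, and without 1 replicate, where the lone file is assumed to vary like the other point, 70 to 841 at E14.5 and 21 to 889 in adult; the cause was not tested. Adult-only regions numbered 11722 with no E14.5 peak within 1 kb and 10169 with 50% of both peaks shared, and E14.5-only regions 14312 with equal numbers of peaks. Without 1 replicate there were 31883 to 77396 E14.5-only and 24347 to 56384 adult-only regions. The share on exons and introns was 41.0% (1 kb), 42.7% (50%) and 42.3% to 49.1% (without 1 replicate) at E14.5, and 69.5% (50%), 73.9% (base pairs) and 65.0% to 71.9% (without 1 replicate) in adult. Of 167 named genes, 133 kept their call with equal numbers of peaks, 32 overlapped and 2 took the opposite call. With scaling 162 kept their call, with peak centres 127 and without 1 kb on each side of the starts 164, and none took the opposite call. The mean difference, adult minus E14.5, changed sign with equal numbers of peaks for Srf (3.35 percentage points), Thra (7.18), Dll4 (0.632), Sntb1 (0.401) and Slc2a1 (0.0402). It also changed sign with scaling for Hk1 (0.0332, in multiples of the file's autosomal coverage), and with peak centres for Acadvl (-0.953 per 10 kb) and Jag2 (-0.239). The adult peak over Acadvl had its centre in Dvl2, and for the other genes the cause was not tested. The lists give no counts, so what depth hides cannot be measured.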
